A study of Mus musculus with 31 samples.

Results

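Translational efficiency (TE) was compared between cortex of mice lacking both Fmr1 and Rps6kb1 (DKO in the labels) and cortex of wild-type mice (WT). TE is the density of ribosome footprints on an mRNA relative to the amount of that mRNA, so a change in TE is the log2 footprint change minus the log2 mRNA change. The comparison used 15 of the 31 libraries of the series directly: 4 WT and 3 DKO libraries of ribosome-protected fragments (RPF), and 4 WT and 4 DKO libraries of polyadenylated mRNA (RNA). The genes followed were the 13654 of 20436 gene symbols with enough counts in both assays. All mice were 29 to 34 days old. The series also holds mice deficient in Fmr1 alone (FXS in the labels) and in Rps6kb1 alone (S6K1 in the labels), and their libraries entered the same model. The labels name no strain, sex, allele or breeding scheme for any genotype, and they do not say whether a deficiency was whole-body or limited to some cells. Nothing in them says that libraries of a group came from separate animals, or that footprint and mRNA libraries shared animals, so the p-values measure the spread between these libraries, which may be technical.

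Fmr1 encodes FMRP, an RNA-binding protein that associates with many neuronal mRNAs, in particular long mRNAs of synaptic proteins, and is best known as a brake on their translation; its loss causes fragile X syndrome. Rps6kb1 encodes S6K1, a kinase downstream of mTORC1 that phosphorylates ribosomal protein S6 and several translation initiation factors. The double mutant lacks both the brake and a kinase that promotes translation, and the comparison with WT asks what the cortex translates differently in the absence of both.

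Total counts in the libraries compared ran from 12134624 to 17045503 for RNA and from 19812525 to 34853751 for RPF. The 4 RNA batches (numbered 5 to 8 in the labels) each held 1 library of every genotype. The RPF batches did not: batch 1 held a DKO library (replicate 1) and no WT library, batch 2 a WT library (replicate 1) and no DKO library, and only batches 3 and 4 held both. Batch 3 held DKO replicate 2 and WT replicate 2, and batch 4 held DKO replicate 3 and WT replicates 3 and 4. The DKO library of batch 1 was linked to WT only through S6K1 libraries. Markers of excitatory neurons and cortical layers summed to between 3736 and 5064 CPM (CPM is a gene's count scaled to a common library total) in the RPF libraries and between 3496 and 5528 CPM in the RNA libraries.

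Both targeted genes stood out in their own libraries. Fmr1 (chrX:68678536-68717963, GRCm38.p6) had 105, 118, 138 and 106 CPM in the WT footprint libraries and 12.8, 10.7 and 8.03 CPM in DKO. Its mRNA had 77.6, 64.2, 72.9 and 55.6 CPM in WT and 21.6, 14.3, 10.6 and 14.9 CPM in DKO. The groups did not overlap in either assay, and the footprints were further apart than the mRNA, so Fmr1 TE fell by 1.54 on the log2 scale (standard error 0.182; edgeR quasi-likelihood adjusted p = 7e-05).

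Rps6kb1 (chr11:86498869-86544885) had 31.7, 27.7, 30.0 and 26.1 CPM of footprints in WT and 12, 11.7 and 11.3 CPM in DKO. Its mRNA had 55.5, 43.4, 47.3 and 39.5 CPM in WT and 39.6, 28.9, 34.1 and 28.5 CPM in DKO. The footprint groups were apart, while the highest mRNA library of DKO lay just above the lowest of WT. Rps6kb1 TE fell by 0.94 (standard error 0.139; edgeR adjusted p = 0.0021). Footprints and mRNA of both genes were thus still counted in DKO, at lower levels, and the labels do not say which part of either gene was removed.

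Of the 13654 genes, 662 (4.85%) passed an adjusted p of 0.05 for TE in the edgeR model with batch as a block. TE rose for 252 genes (1.85%) and fell for 410 (3.00%). The median size of the change among them was 0.59 on the log2 scale. Far fewer genes passed for footprints alone: 51 of 13953 (0.366%), with 4 higher and 47 lower. For mRNA alone, 743 of 14215 passed (5.23%), with 450 higher and 293 lower.

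These 662 calls rested on the batch structure and on single libraries. Without the batch term 2 genes passed, Utp18 (higher) and Gal3st1 (lower). Without DKO replicate 2 of the footprint libraries 8 genes passed, and without WT replicate 2, the other library of footprint batch 3, 17 passed. Among RNA libraries, the count was 83 without WT replicate 3, 99 without DKO replicate 3, 111 without WT replicate 2 and 203 without DKO replicate 2, and between 453 and 718 without the others. Among the other footprint libraries it was 313 without DKO replicate 3, 1032 without WT replicate 1 and 1096 without WT replicate 3. In the plot of counts by library left out, the bars for the pair of batch 3 libraries are the shortest. Only 7 genes passed with every one of the 15 libraries left out in turn: Fmr1, Rps6kb1, Cnp, Myrf and Ephb1 (lower) and Utp18 and Zfp932 (higher).

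**Figure D1:**
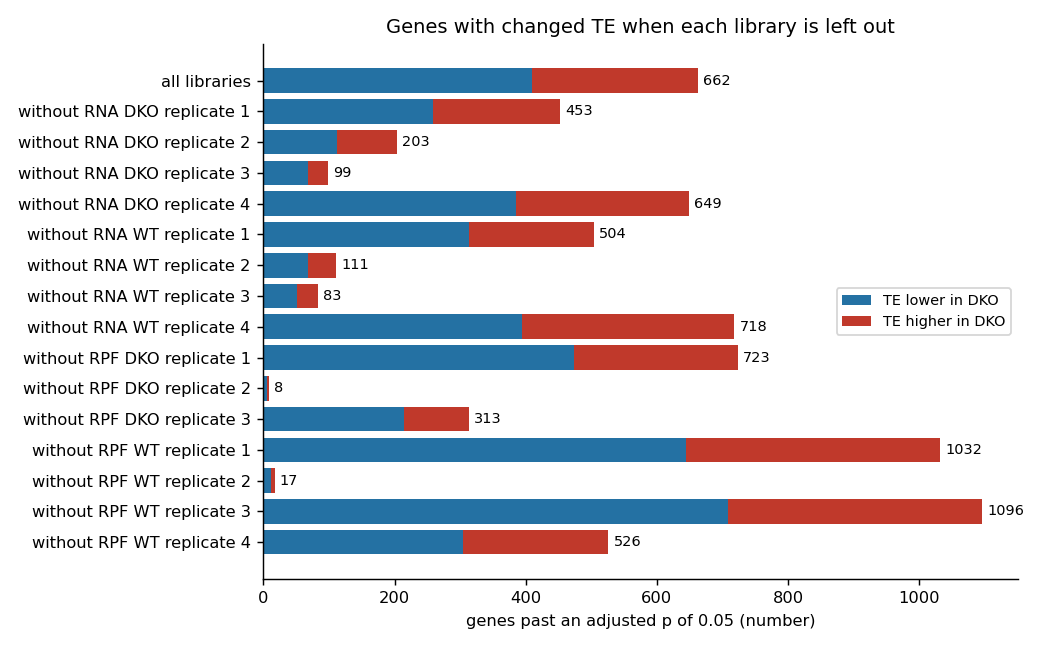
Number of genes past an adjusted p of 0.05 for TE, DKO against WT, with all libraries (662) and with each of the 15 libraries left out in turn; blue is lower TE and red is higher TE in DKO. The count is 8 without footprint DKO replicate 2 and 17 without footprint WT replicate 2, and 1096 without footprint WT replicate 3.

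The called changes were mostly made of a footprint change and an mRNA change of opposite sign. Among the 252 genes with higher TE, the median footprint change was 0.31 and the median mRNA change -0.26. Among the 410 with lower TE, the medians were -0.36 for footprints and 0.25 for mRNA. The 2 parts had opposite signs in 640 of the 662 called genes, against 57.4% of all genes tested; TE is their difference, so opposite signs favour a call. The mRNA part was the larger of the pair in 231 called genes. Taken alone, 29 of the 662 passed for footprints and 253 for mRNA, 2 passed for both, and 382 passed for neither. WT and DKO footprint libraries did not overlap for 378 of the called genes (57.1%), against 16.4% of all genes. The mRNA libraries did not overlap for 121 (18.3%), against 6.24% of all genes. The genes were called from these same libraries, so the shares describe the calls and support nothing.

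**Figure D2:**
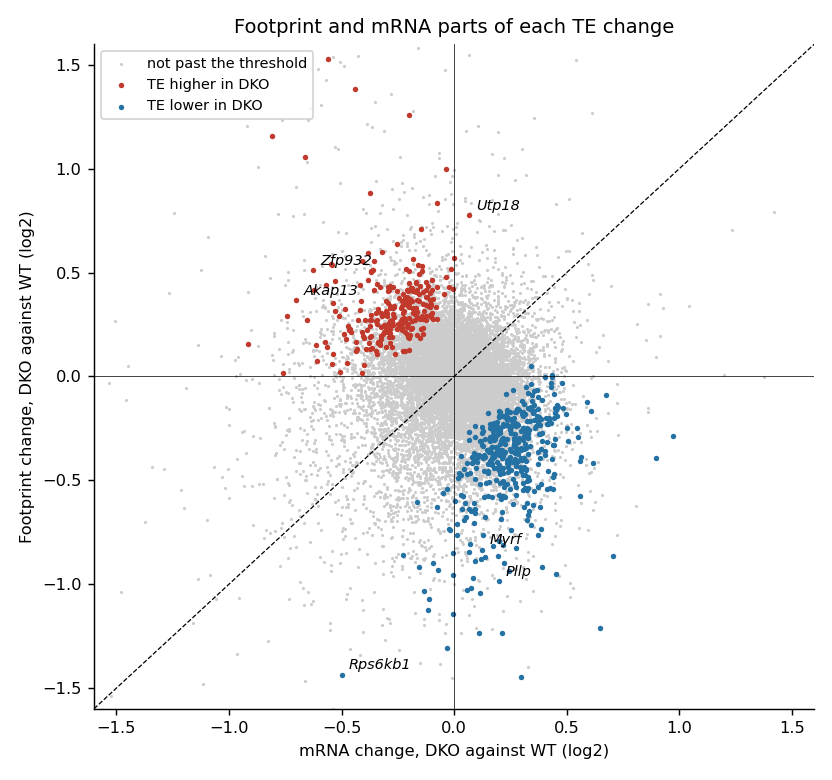
mRNA change (x axis) against footprint change (y axis) of each gene, DKO against WT, on the log2 scale; the dashed line marks equal change and hence no TE change. Called genes lie above the line (red, higher TE) or below it (blue, lower TE), most of them where the 2 parts have opposite signs; 23 of the 13654 genes, 3 of them called, lie outside the axes (1.6 in each direction).

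Myelin and oligodendrocyte genes held many of the lowest TE values. Oligodendrocytes wrap axons in myelin, and their marker mRNAs encode the membrane proteins, lipid enzymes and transcription factors of the sheath. Of 49 such genes tested, TE fell for 23 (46.9%, against 3.00% of all genes) and rose for none, with a median change of -0.68 against -0.02 over all genes. Footprints passed as lower for 16 of the 49, against 0.366% of all genes for footprints in either direction. For mRNA, 3 passed as higher and 3 as lower, against 3.28% and 2.10% of all genes tested. The median mRNA change was 0.00. The list was chosen with earlier results of these data known, so its direction is not independent evidence.

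Cnp, the myelin enzyme 2',3'-cyclic nucleotide 3'-phosphodiesterase, showed the pattern of the group most clearly. Its footprints had 922, 999.9, 849.6 and 849 CPM in WT and 603, 555 and 575 CPM in DKO, with no overlap. Its mRNA had 338, 391, 333 and 326 CPM in WT and 331, 369.7, 357 and 397 CPM in DKO, with the groups interleaved. Cnp TE fell by 0.71 (standard error 0.112; edgeR adjusted p = 0.0033), and the adjusted p reached at most 0.0316 with any 1 library left out.

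Myrf, the transcription factor that switches on myelin genes, had 34.1, 37.0, 27.8 and 25.5 CPM of footprints in WT and 14, 18.7 and 14.1 CPM in DKO. Its mRNA ran from 25.3 to 30.8 CPM in WT and from 27.5 to 33.8 CPM in DKO. Footprints were apart and mRNA overlapped, and TE fell by 0.96 (standard error 0.152; edgeR adjusted p = 0.0033).

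Pllp, a tetraspan protein of the myelin membrane, had 18.2, 28.7, 16.5 and 18.6 CPM of footprints in WT and 12, 10.2 and 9.78 CPM in DKO, and its TE fell by 1.19 (edgeR adjusted p = 0.0081). Gal3st1, which sulfates the myelin lipid galactosylceramide, had between 3.78 and 4.48 CPM of footprints in WT and between 1.28 and 2.00 CPM in DKO, and its TE fell by 1.08 (adjusted p = 0.0091). The footprints of both were lower in every DKO library than in any WT library. Aatk, a kinase with high mRNA levels in oligodendrocytes, fell by 0.81 (adjusted p = 0.0056); here footprints were lower and mRNA passed as higher by 0.27.

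Olig1, a transcription factor of the oligodendrocyte lineage, fell by 1.12 (adjusted p = 0.0265), but its DKO footprints were uneven at 17.5, 22.7 and 55.8 CPM, against 61.5 to 72.6 CPM in WT. Mag, an adhesion protein of the inner sheath named here after its values were seen, fell by 1.12 (adjusted p = 0.023). Itgb4, an integrin named for the same reason, fell by 1.01 (adjusted p = 0.0113) with footprints of 11.5 to 13.5 CPM in WT and 4.62 to 6.25 CPM in DKO.

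Mbp, the myelin basic protein, had a change of -0.34 that did not pass (adjusted p = 0.22), and Mobp one of -0.55 (adjusted p = 0.169).

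Over the whole myelin list, the median footprint difference of DKO from WT was -0.94 within batch 3 and -0.57 within batch 4. The median mRNA differences in batches 5 to 8 were -0.07, -0.07, -0.05 and 0.08. The summed footprint level of the list ran from 5155 to 7372 CPM in WT and from 3669 to 4776 CPM in DKO, without overlap, while the summed mRNA level ran from 4274 to 6595 CPM in WT and from 4105 to 6519 CPM in DKO. In bulk tissue, fewer cells of a type and less RNA per cell cannot be told apart in either assay. The number of myelin genes called was 2 without footprint DKO replicate 2, 4 without footprint WT replicate 2 and 15 without footprint DKO replicate 3. It was between 9 and 13 without replicate 2 or 3 of either RNA group, 1 without the batch term and 16 to 28 in the other alternatives, while the median change stayed between -0.77 and -0.53 over the 23 alternatives run.

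Markers of other cell types were read beside the myelin genes. No gene passed for TE among 10 markers of oligodendrocyte precursors, 20 of astrocytes, 20 of microglia and 20 of endothelium and mural cells, by edgeR, DESeq2 or limma voom; at an unadjusted p under 0.05 by edgeR there were 2, 2, 1 and 2. The median TE changes of these lists were -0.22, 0.01, -0.04 and 0.01, and each of them took the other sign under at least 1 alternative. Of 20 interneuron markers, 1 passed as lower by edgeR (5%, against 3.00% of all genes). In either direction, 7 had an unadjusted p under 0.05 by edgeR, and DESeq2 called 4. The median of the list was 0.06 and took the other sign in 2 of 23 alternatives. The gene that passed by edgeR was Cort, a neuropeptide gene, which fell by 1.29 (adjusted p = 0.0271). Its mRNA part of 0.90 was larger than its footprint part of -0.39. Striatal markers, which can enter a cortical dissection, summed to between 232 and 950.1 CPM in WT footprints and between 172 and 369.5 CPM in DKO footprints. No striatal or blood marker passed by edgeR, with 1 of 12 and 2 of 6 at an unadjusted p under 0.05 and with 1 and 2 called by DESeq2. Limma voom called 0 striatal markers and 1 blood marker. The median TE change of striatal markers was 0.27, with the other sign in 3 of 23 alternatives. For blood markers it was 1.12, the largest in size of any list, with a median mRNA change of -0.82. The blood median stayed between 0.46 and 1.43 over the 23 alternatives. Blood markers summed to between 1318 and 1936 CPM of mRNA in WT and between 825 and 1137 CPM in DKO. The part of these differences in the TE changes was not tested.

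**Figure D3:**
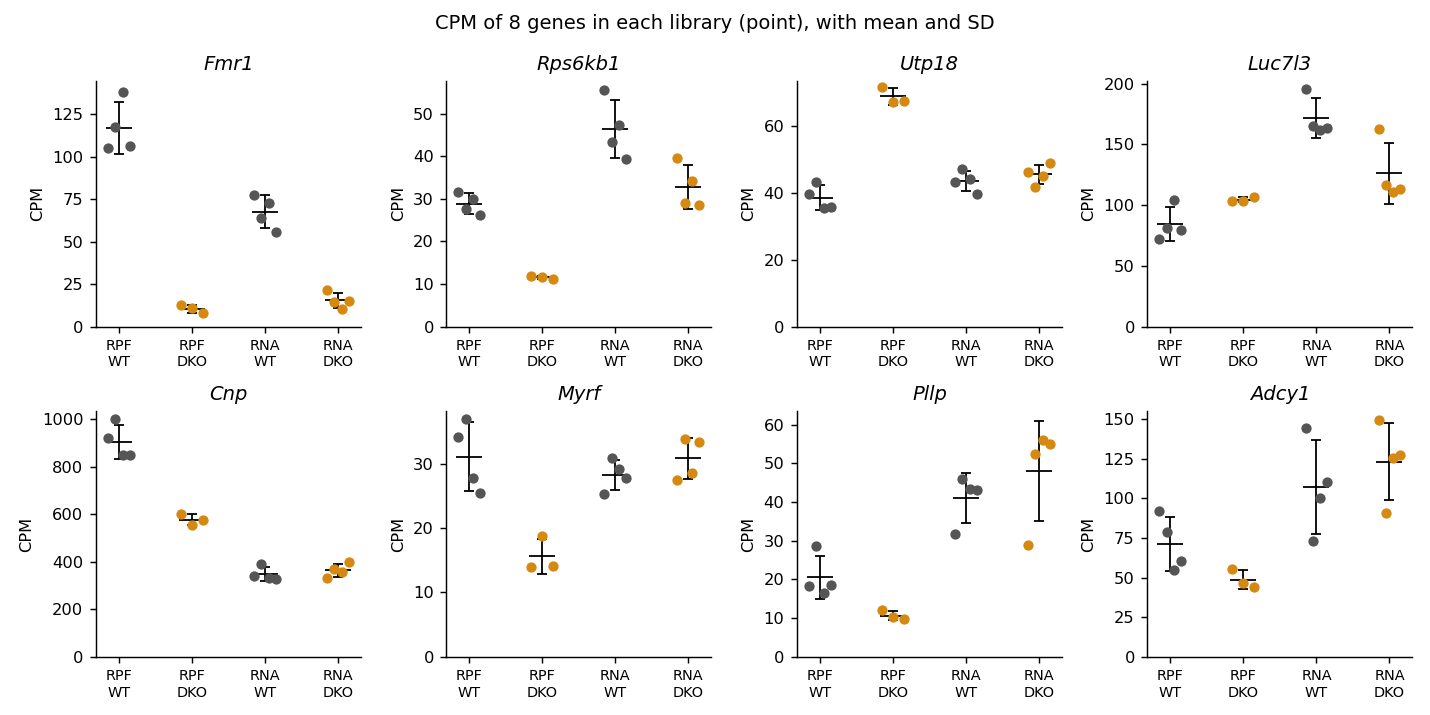
Levels (CPM) of 8 genes in every library compared (grey WT, orange DKO; RPF 4 and 3 libraries, RNA 4 and 4), with the mean and SD of each group. For Cnp, Myrf and Pllp the DKO footprint libraries lie below all WT ones while the mRNA libraries overlap; Utp18 has higher footprints in DKO with overlapping mRNA, and for Luc7l3 the mRNA is lower in 3 of the 4 DKO libraries than in any WT library.

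Excitatory neuron markers also had lower TE, with smaller changes that had a part in mRNA. Of 19 markers of excitatory neurons and cortical layers, TE fell for 5 (26.3%, against 3.00% of all genes) and rose for none, with a median change of -0.26. In either direction, 7 had an unadjusted p under 0.05 by edgeR, and DESeq2 called 6. The median footprint change was -0.16 and the median mRNA change 0.18, and mRNA passed as higher for 6, against 3.28% of all genes tested. Slc17a7, the vesicular glutamate transporter of cortical excitatory neurons, had 608, 717, 499.8 and 562 CPM of footprints in WT and 509, 382 and 546 CPM in DKO, and 1446, 1961, 2159 and 2309 CPM of mRNA in WT against 1587, 2652, 2936 and 2843 CPM in DKO. Both assays overlapped between the groups, and with batch as a block TE fell by 0.63 (edgeR adjusted p = 0.0402). Within footprint batch 3 the difference was -0.91, and within batch 4 it was 0.04. The transcription factors of deep layers Tbr1 and Tle4 fell by 0.51 and 0.50, and Ctgf, a marker of the deepest layer, fell by 0.99. The fifth was Sulf2 (-0.77), a sulfatase named after its value was seen. The 5 calls became 0 without RNA batch 5, without the batch term, without either footprint library of batch 3 and without RNA WT replicates 2 or 3. They became 3 without footprint DKO replicate 3 or RNA DKO replicate 1, 2 with the 2 genotypes alone or without RNA DKO replicates 2 or 4, and 1 without RNA DKO replicate 3.

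Of 70 mRNAs long known as FMRP targets, TE fell for 9 (12.9%, against 3.00% of all genes) and rose for none, with a median of -0.28, and 59 of the 70 had a change below 0. mRNA passed as higher for 10 of them, against 3.28% of all genes tested, and as lower for none. Footprints passed as lower for 1, against 0.366% of all genes for footprints in either direction. Adcy1, the calcium-stimulated adenylyl cyclase, was that gene. It had 91.7, 78.6, 54.5 and 60.6 CPM of footprints in WT and 55.2, 46.6 and 43.8 CPM in DKO, and its mRNA overlapped at 73.0 to 144 CPM in WT and 90.8 to 149.7 CPM in DKO. One DKO footprint library lay within the WT range, and Adcy1 TE fell by 0.79 (standard error 0.141; edgeR adjusted p = 0.0081).

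Most of the other called FMRP targets were synaptic. Shank1, a scaffold of the postsynaptic density, had 87.7, 54.2, 60.2 and 53.0 CPM of footprints in WT and 33.1, 41.0 and 46.7 CPM in DKO. Its mRNA ran from 302 to 433 CPM in WT and from 389 to 506 CPM in DKO. Shank1 footprints were apart and its mRNA overlapped, and TE fell by 0.80 (adjusted p = 0.031). The calcium pump Atp2b2 fell by 0.60, the presynaptic adhesion protein Nrxn3 by 0.51, the P/Q-type calcium channel Cacna1a by 0.63, and the postsynaptic adhesion proteins Nlgn2 and Nlgn3 by 0.70 and 0.44. App, the amyloid precursor protein, fell by 0.56. A pair of the best known targets did not pass: Map1b had a change of -0.21 (adjusted p = 0.49) and Camk2a one of -0.26 (adjusted p = 0.342). Map1b footprints were uneven in WT, at 5816, 2551, 3142 and 2794 CPM, and ran from 2825 to 4124 CPM in DKO. The 9 calls among FMRP targets became 0 without footprint DKO replicate 2 or without the batch term, and 1 without footprint WT replicate 2 or without replicate 2 or 3 of either RNA group. They became 3 without footprint DKO replicate 3, 5 without RNA batch 5 or its DKO library, 14 and 15 without footprint WT replicates 1 and 3, and 19 with DESeq2, and the median stayed between -0.33 and -0.23.

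Synaptic and channel lists had medians below 0 as well, and some of their members are also FMRP targets. The counts that follow stand beside 3.00% of all genes called lower. Of 28 postsynaptic scaffold genes, TE fell for 6 (21.4%), with Shank1, Nlgn2 and Nlgn3 already named; among them were also Iqsec1 (-0.39), an ARF exchange factor, and Magi2 (-0.40), a scaffold, the last named after its value was seen. None of the 6 passed without either footprint library of batch 3 or without replicate 2 or 3 of either RNA group. Of 40 synaptic vesicle and release genes, TE fell for 4 (10%), and mRNA passed as higher for 11, against 3.28% of all genes tested. The 4 with lower TE were Syn1 (-0.43), Sv2a (-0.45), Rph3a (-0.56) and Scamp5 (-0.46), all proteins of the vesicle surface or its docking. For Syn1 the footprint change was -0.07 and the mRNA change 0.35, so that the mRNA carried the TE change. Of 35 potassium channel genes, TE fell for 3 (8.57%): Kcnc4 (-0.53), Kcnh1 (-0.51) and Kcnn1 (-0.87). Of 24 sodium or calcium channel genes it fell for 2 (8.33%), Cacna1a and the T-type channel Cacna1i (-0.76). None of these 4 lists had a call in the other direction. The vesicle and both channel lists had 0 calls without the batch term, without either footprint library of batch 3, without RNA WT replicates 2 or 3 and without RNA DKO replicate 3. The potassium channel list also had 0 without RNA DKO replicate 2 and with the 2 genotypes alone. With DESeq2 the vesicle, potassium, and sodium or calcium channel lists had 9, 8 and 4 calls, and without footprint WT replicate 3 they had 9, 10 and 4. No gene passed by edgeR or limma voom among 15 AMPA or NMDA receptor subunits (median -0.18; 3 at an unadjusted p under 0.05, 2 called by DESeq2). The same held for 10 metabotropic glutamate receptors and Homer proteins (median -0.34; 5 at an unadjusted p under 0.05, 0 called by DESeq2).

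Other genes with lower TE came from the smallest adjusted p-values, the largest changes and the gene lists. Ephb1, a receptor tyrosine kinase for ephrin-B, had 22.9, 20.9, 14.8 and 14.4 CPM of footprints in WT and 13.4, 16.2 and 10.5 CPM in DKO, and 44.6 to 57.7 CPM of mRNA in WT against 46.7 to 78.4 CPM in DKO. Both assays overlapped in raw levels, TE fell by 0.75 (standard error 0.138; edgeR adjusted p = 0.0091), and the adjusted p reached at most 0.0488 with 1 library left out. Hapln4, a link protein of perineuronal nets, had the lowest TE change among well-expressed genes after the targeted Fmr1, at -1.31 (adjusted p = 0.031), with footprints of 38.9 to 78.0 CPM in WT and 18.6 to 38.1 CPM in DKO. Gabbr2, a subunit of the GABA-B receptor, fell by 0.61, and Celsr2, an adhesion receptor, by 0.84. The chromatin regulators Zmiz1 (-0.56), Chd5 (-0.45) and Arid1b (-0.45) were the 3 called of 50 (6.00%, against 3.00% of all genes). The median change of that list was -0.03, near that of all genes, with 24 of 50 above 0, and its calls became 0 without the batch term, without either footprint library of batch 3 or without footprint DKO replicate 3. Srebf2, a regulator of cholesterol synthesis, fell by 0.56 and was 1 of the 2 called of 22 genes of that pathway (9.09%).

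**Figure D4:**
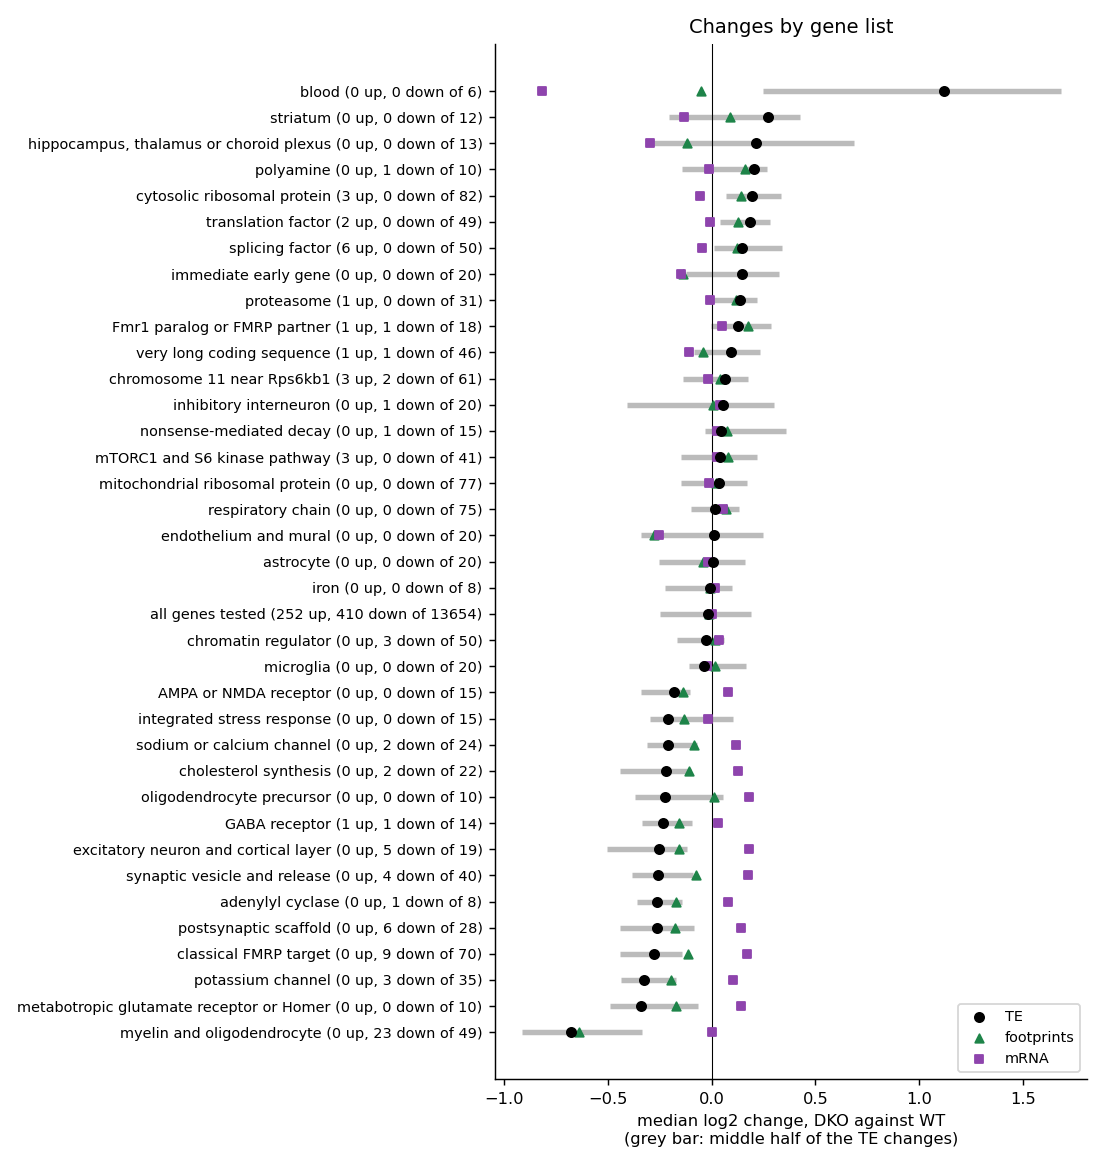
Median log2 change of TE (black), footprints (green) and mRNA (purple), DKO against WT, in each gene list, with the quartiles of the TE changes as a grey bar and the numbers called up and down of those tested in brackets. Myelin genes lie lowest at -0.68, with lower footprints and no mRNA shift. The lists of excitatory neuron markers, FMRP targets, postsynaptic scaffolds and synaptic vesicle genes lie below 0 with mRNA above 0. The medians of interneuron and striatal markers lie above 0, but took the other sign in 2 and 3 of 23 alternatives. The blood list, with 6 genes and none called by edgeR, lies highest.

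Splicing factors were among the genes with higher TE. Of 50 tested, TE rose for 6 (12%, against 1.85% of all genes) and fell for none, with a median of 0.14 and 39 changes above 0. mRNA passed as lower for 8 of the 50 (against 2.10% of all genes tested) and as higher for 2 (against 3.28%), and footprints passed for none. All 3 members of the Luc7-like family, which bind the U1 snRNP at the splice donor site, were among the 6 with higher TE. Luc7l3 (chr11:94291073-94322329) had 71.9, 80.9, 104 and 79.6 CPM of footprints in WT and 103, 103 and 107 CPM in DKO, and 196, 165, 162 and 164 CPM of mRNA in WT against 163, 117, 111 and 114 CPM in DKO. WT replicate 3 reached the DKO footprint range, and DKO replicate 1 (batch 5) reached the WT mRNA range. Luc7l3 TE rose by 0.67 (standard error 0.118; edgeR adjusted p = 0.0081), with mRNA falling by 0.46 and a footprint change of 0.21 that did not pass.

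Luc7l2 had 93.5, 97.5, 107 and 87.0 CPM of footprints in WT and 126, 127 and 124 CPM in DKO, without overlap, and its TE rose by 0.59 (adjusted p = 0.0091). Luc7l rose by 0.61 (adjusted p = 0.0113), with footprints of 82.0 to 99.3 CPM in WT and 102 to 130.2 CPM in DKO. The other called splicing factors were the heterogeneous nuclear ribonucleoproteins Hnrnpu (0.47) and Hnrnpd (0.34) and the SR-type protein Srsf10 (0.64), the last pair named after their values were seen. Outside the list, the RNA-binding proteins Pnn (0.61), Rbm39 (0.59) and Snrnp48 (0.91) were among the 15 higher genes of smallest adjusted p. The splicing calls became 0 without footprint DKO replicate 2 or the batch term, 2 without footprint WT replicate 2, and 3 without footprint DKO replicate 3, RNA WT replicates 2 or 3 or RNA DKO replicate 3. They became 10 without footprint WT replicate 3 and 11 with DESeq2.

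The smallest adjusted p among higher genes belonged to Luc7l3 and Utp18, a component of the machinery that processes the small-subunit ribosomal RNA. Utp18 (chr11:93859243-93885766) had 39.5, 43.3, 35.4 and 35.8 CPM of footprints in WT and 71.5, 67.2 and 67.5 CPM in DKO, far apart. Its mRNA ran from 39.6 to 47.0 CPM in WT and from 41.8 to 49.0 CPM in DKO, interleaved. Utp18 TE rose by 0.70 (standard error 0.122; edgeR adjusted p = 0.0081), it was 1 of 4 genes with higher footprints, and it passed in all 23 alternatives.

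Zfp932, a zinc finger protein, had 15.3, 10.1, 9.73 and 13 CPM of footprints in WT and 28.6, 15.6 and 16.3 CPM in DKO, and 147, 115, 105 and 101 CPM of mRNA in WT against 107, 75.3, 52.4 and 72.1 CPM in DKO. Footprints were apart and mRNA was mostly lower in DKO, and TE rose by 1.14 (standard error 0.2; edgeR adjusted p = 0.0084). Mdm4 (0.66), a regulator of p53, Kitl (0.77), the ligand of the receptor Kit, Hook1 (0.62), an adaptor of dynein, Kctd4 (0.76), Stk38 (0.97), a kinase of the NDR family, Cebpzos (0.99) and Fam178a (0.80) were the remaining ones of smallest adjusted p. Akap13 (1.06), an anchoring protein for protein kinase A, and Uggt2 (0.92) were among the largest well-expressed changes. In all of these the mRNA change was below 0 and the footprint change above 0. Akap13 footprints overlapped between the groups, and their difference was 1.02 within batch 3 and -0.04 within batch 4.

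Ribosomal protein mRNAs are the classical group whose translation answers to mTORC1, through a pyrimidine tract at the very start of the mRNA (5' TOP). Of 82 cytosolic ribosomal protein genes, TE rose for 3 and fell for none, and 69 had a change above 0, with a median of 0.19. The share called was 3.66%, against 1.85% higher over all genes. No ribosomal protein gene passed for footprints or for mRNA alone. Rpl5 had 214, 224, 242 and 251 CPM of footprints in WT and 297, 298 and 290.1 CPM in DKO, and 745, 829, 789.5 and 761 CPM of mRNA in WT against 638, 727, 712 and 705 CPM in DKO. Both assays were apart, in opposite directions, and Rpl5 TE rose by 0.45 (edgeR adjusted p = 0.0457). Rpl38 rose by 0.50 (adjusted p = 0.0484) and Rpl39 by 0.57 (adjusted p = 0.0401). Rps6, the substrate of S6K1, had a change of 0.23 that did not pass (adjusted p = 0.253). The 3 calls became 0 without RNA batch 5, without the batch term, without either footprint library of batch 3, without footprint DKO replicate 3 and without any of replicates 1 to 3 of either RNA group. They became 1 without footprint batch 1, footprint DKO replicate 1 or RNA WT replicate 4, 5 without footprint WT replicate 4, and 7 with DESeq2 or with the 2 genotypes alone, and the median ran from 0.13 to 0.25 over the alternatives.

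The 30 bases around the RefSeq start (10 before and 20 from the start, GRCm38.p6) are shown for the 3 called genes and for Rps6. They differ in whether the form searched here as TOP-like was found at the listed start. Capitals mark a C at the start followed without a break by at least 4 pyrimidines (C or T), the form searched here as TOP-like.
Rpl38, chr11:114668570-114668599, plus strand: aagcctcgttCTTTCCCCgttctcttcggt
Rps6, chr4:86857348-86857377, minus strand: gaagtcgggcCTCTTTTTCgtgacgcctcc
Rpl5, chr5:107900518-107900547, plus strand: cgtcgcttgcgtgctggtggtgctacatac
Rpl39, chrX:37085203-37085232, minus strand: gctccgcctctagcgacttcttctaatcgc

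A start of this form was found in Rpl38 and Rps6 and not in the windows of Rpl5 and Rpl39. It was present in 14 of 61 ribosomal protein genes with a listed start, in 2.95% of the 10872 tested genes with one, and in 2.51% of all 32851 listed windows. The median TE change was 0.20 in the 14 ribosomal protein genes with a TOP-like start and 0.19 in the 47 without it. In the genes outside the ribosomal protein and translation factor lists it was -0.03 in the 305 with such a start and -0.01 in the 10468 without it. The search took a C only at the exact base listed as the start, so a tract at a start listed a few bases off is missed. Genes without the form may still have a tract, so these medians cannot decide its part in the TE changes.

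Of 49 translation factors, TE rose for 2 (4.08%, against 1.85% of all genes) and fell for none, with a median of 0.18. A count of calls this small is close to the share over all genes. The change was above 0 for 38 of the 49, against 48.0% of all genes. Pabpc1, the poly(A)-binding protein, had 139, 129.9, 118 and 151 CPM of footprints in WT and 154, 211 and 179 CPM in DKO, apart by a small margin, and its TE rose by 0.56 (edgeR adjusted p = 0.0215). Eif3j1, a subunit associated with initiation factor 3, had 68.3 to 73.0 CPM in WT and 154, 99.5 and 90.0 CPM in DKO, and rose by 0.60 (adjusted p = 0.0216). Neither passed without either footprint library of batch 3 or without the batch term.

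Of 41 genes of the mTORC1 and S6 kinase pathway, a list without Rps6kb1 itself, TE rose for 3 (7.32%, against 1.85% of all genes) and fell for none. The median was 0.04, with the sign of the median changing in 1 of 23 alternatives. The 3 were Pdcd4 (0.42), an inhibitor of the helicase eIF4A and itself a substrate of S6K1, and Rragc (0.50) and Rragd (0.50), 2 of the Rag GTPases that bring mTORC1 to the lysosome. The 3 calls became 0 without the batch term, without either footprint library of batch 3, without RNA WT replicates 2 or 3 and without RNA DKO replicate 3. They became 1 with the 2 genotypes alone or without RNA DKO replicate 2, and 5 with DESeq2, without footprint WT replicate 3 or without RNA WT replicate 4. Pdcd4 footprints had 199.9, 235, 232 and 230.0 CPM in WT and 353, 257 and 251 CPM in DKO, and its mRNA ran from 122 to 148 CPM in WT and from 105 to 113 CPM in DKO. Both assays were apart, with footprints higher and mRNA lower in DKO, and the adjusted p for TE was 0.0216 by edgeR. Of 18 paralogs and partners of FMRP, 1 passed as higher and 1 as lower (5.56% each, against 1.85% and 3.00% of all genes). Fxr1, an autosomal paralog of Fmr1, rose by 0.41 (adjusted p = 0.0254) with 118 to 135 CPM of footprints in WT and 158 to 177 CPM in DKO. The single-strand binding protein Pura fell by 0.58 (adjusted p = 0.0278).

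**Figure D5:**
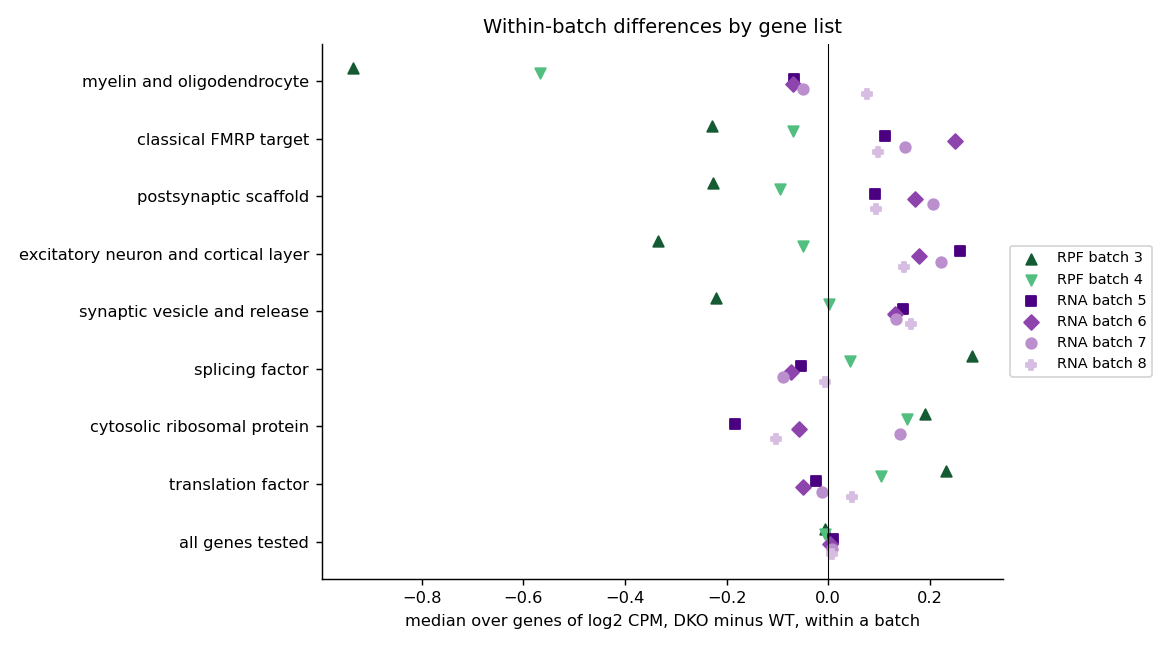
Median over the genes of a list of the log2 CPM difference, DKO minus WT, within each batch that holds both genotypes (RPF batches 3 and 4, RNA batches 5 to 8; pseudocount 0.5 CPM). Myelin footprints lie at -0.94 and -0.57 with mRNA near 0; for FMRP targets, splicing factors and excitatory neuron markers the footprint difference is larger in size in batch 3 than in batch 4.

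Within the footprint batches that hold both genotypes, batch 3 differed more than batch 4. Over the 410 genes with lower TE the median footprint difference was -0.69 within batch 3 and -0.22 within batch 4, and over the 252 with higher TE it was 0.48 and 0.25. The mRNA differences of the same genes had medians between 0.18 and 0.31 (lower TE) and between -0.38 and -0.18 (higher TE) in the 4 RNA batches. For FMRP targets the footprint medians were -0.23 and -0.07, for splicing factors 0.28 and 0.04, and for synaptic vesicle genes -0.22 and 0.00. Batch 3 holds 1 library of each genotype and batch 4 holds 1 DKO and 2 WT libraries, so no spread could be had within a batch for DKO.

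Genes near Rps6kb1 on chromosome 11 were read as a list because the region around a targeted gene can carry the genome of another strain. Of 61 such genes tested, the targeted Rps6kb1 itself among them, TE passed for 5, against 4.85% of all genes. TE rose for 3 (4.92%, against 1.85% of all genes), Rnft1, Ggnbp2 and Utp18. It fell for 2 (3.28%, against 3.00% of all genes), Rps6kb1 and Rad51d, a DNA repair gene. The genes tested reached 3.64 Mb from Rps6kb1 towards lower coordinates (Rad51d) and 7.72 Mb towards higher ones. Rnft1 overlaps the end of Rps6kb1 in the annotation. It had 2.93, 2.97, 2.23 and 2.20 CPM of footprints in WT and 5.60, 4.68 and 3.10 CPM in DKO, and its TE rose by 0.69 (edgeR adjusted p = 0.0254). Both genes share only the bases from 86498869 to 86499007. Reads there may not be told apart, since the strand of the counts is not given in the sources used here. The footprint change was 0.54 for Rnft1 and -1.44 for Rps6kb1, in opposite directions, and the part of shared reads was not tested. Rad51d, 3.64 Mb away, had 12.9, 15, 13.2 and 11.2 CPM of mRNA in WT and 18.4, 21.9, 20.4 and 18.3 CPM in DKO, and its TE fell by 0.72 (adjusted p = 0.0113). Utp18 lies 7.35 Mb away, and Luc7l3, just outside the list, 7.78 Mb away. Against WT, Rad51d TE changed by -0.81 in S6K1 and -0.22 in FXS, and Utp18 TE by 0.48 and 0.02. In the same order, the changes were 0.43 and 0.42 for Rnft1 and 0.11 and 0.16 for Ggnbp2. The 5 calls became 1 without the batch term, 2 without either footprint library of batch 3, and 3 with the 2 genotypes alone or without footprint DKO replicate 3, RNA DKO replicate 3 or RNA WT replicate 2. The origin of the region in these mice is not stated, and its part in these values was not tested.

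The single mutants shared WT libraries with DKO, so their values are set side by side. Against WT, 13 genes passed for TE in FXS (0.0952%) and 4 in S6K1 (0.0293%). Cnp TE was -0.44 in FXS (adjusted p = 0.0849), -0.63 in S6K1 (adjusted p = 0.0352) and -0.71 in DKO. The mean footprint level of Cnp was 905 CPM ± 72.0 in the 4 WT libraries (SD), 645 ± 78.7 in the 5 of FXS, 685 ± 27.2 in the 3 of S6K1 and 577 ± 24.4 in the 3 of DKO, highest in WT. The myelin list had medians of -0.39 in FXS, -0.49 in S6K1 and -0.68 in DKO. FMRP targets had medians of -0.28, -0.10 and -0.28, ribosomal proteins 0.26, 0.17 and 0.19, and excitatory neuron markers -0.26, -0.30 and -0.26. Luc7l3 was 0.30 in FXS, 0.38 in S6K1 and 0.67 in DKO.

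The difference between DKO and each single mutant was tested directly. Between DKO and FXS, 2 genes passed for TE by edgeR (0.0146%): Rps6kb1 was lower by -1.14 and Utp18 higher by 0.68 (adjusted p = 0.0322). The mean footprint level of Utp18 was 38.5 CPM ± 3.72 in WT (SD), 40.02 ± 3.73 in FXS, 59.0 ± 2.92 in S6K1 and 68.7 ± 2.41 in DKO, with the libraries of both genotypes deficient in Rps6kb1 above those of both others. Between DKO and S6K1, 1 gene passed (0.00732%): Fmr1, lower by -1.42. For all other genes named here the TE of DKO did not differ from that of either single mutant past the threshold, which does not show that they were alike. The difference of DKO from FXS was -0.27 ± 0.111 (standard error) for Cnp and 0.37 ± 0.116 for Luc7l3, with adjusted p of 0.567 and 0.509.

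The share of genes called varied with mRNA level and with the GC content of the start. Genes were split into 5 equal bins by each property. Lower TE was called for 5.97% of genes in the bin of highest mean mRNA level and for 0.586% in the lowest. Higher TE was also called more often at higher levels, for 0.513% in the lowest bin, 3.19% in the fourth and 1.76% in the highest. The median mRNA level was 67.6 CPM for genes with lower TE, 42.7 CPM for those with higher TE and 27.7 CPM over all genes, and the median TE change was -0.05 in the highest bin and 0.00 in the lowest. Among genes with a listed start, it was called for 4.64% in the bin with most GC in the 50 bases after the start (at least 74%) and for 1.47% in the bin with least (at most 56%). Higher TE was called for 1.98% and 1.70% in the same bins, and, by the GC content of 300 bases around the start, for 2.85% in the top bin and 2.02% in the bottom one. The bin of shortest genomic span had a median TE change of -0.13. Genes are not independent replicates, these splits were chosen after the data were seen, and level and GC content were not separated.

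Among gene families read by symbol, also chosen after their values were seen, and beside 1.85% of all genes called higher and 3.00% called lower, TE rose for 17 (5.09%) and fell for 4 of 334 Zfp zinc finger genes, with a median of 0.19. It fell for 12 (6.38%) of 188 Tmem genes, 4 of 13 Eph receptors and 3 of 19 semaphorins and rose for none of them. Zinc finger genes were low in footprints, with a median of 11 CPM in WT.

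The authors' deposited table for TE in DKO against WT held 12004 genes, of which 87 had an adjusted p under 0.05 (0.725%), 43 higher and 44 lower. Each of these 87 also passed here, with the same sign. The authors' table is of the same series, and its changes had a Pearson r of 0.999 with those found here. The shared sign is therefore not independent support. Together they were 13.4% of the 651 genes called here that the authors' table held, and 11 of the 662 were not in it. In the authors' deposited table Cnp had a log2 change of -0.70 (adjusted p = 2e-05), Utp18 one of 0.72 (adjusted p = 7e-05) and Luc7l3 one of 0.67 with an adjusted p of 0.0821. By the authors' adjusted p, Pllp (0.0312) and Gal3st1 (0.0024) passed as well. Adcy1 (0.157), Shank1 (0.123), Mag (0.236) and Slc17a7 (0.262) did not.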

How the data were processed

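The authors deposited raw read counts per gene symbol for ribosome footprints and for mRNA (20436 symbols each, counted over coding sequences by the tables' names). The submitters' processing notes name the mouse build mm10, cutadapt 2.0, Bowtie2, TopHat2 and RSEM without their roles. The footprint protocol is not given in the sources used here. The authors also deposited a TE table holding log2 changes, p-values, a test score and a mean normalized signal per gene, of which the log2 changes and p-values were used.

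The counts of all 31 libraries were fitted in 1 edgeR 4.0.16 quasi-likelihood model (R 4.3.3; filterByExpr and TMM factors within each assay, batch nested in assay as a block), with genotype by assay as the TE term. p-values were Benjamini-Hochberg adjusted over all genes tested, with a threshold of 0.05. The standard error is the change divided by the root of its F statistic. CPM values use the TMM factors; fold changes use a prior count of 2. Batch, which the labels give, pairs libraries; replicate numbers follow accession order and pair nothing. The code was tested on simulated data.

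Genes named were the targeted genes, the 15 higher and 15 lower of smallest adjusted p, the 5 largest changes each way at 10 CPM or more, and up to 4 called genes per list and direction; others are said to be chosen later. Some of the genes the rule gives are not reported here. The comparison, the 36 gene lists and the rule were chosen with earlier results of these data known. Alternatives were DESeq2 1.42.0, limma 3.58.1 (voom), RLE factors, no filter, no batch term, 2 genotypes only, and leaving out RNA batch 5 or each library; leaving out footprint batch 1 was added after the data were seen. Coding length was not used, and gene span and the GC content of RefSeq windows (GRCm38.p6) took its place.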

Additional observations from a re-analysis of the deposited data

Results flagged for a closer look

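Outlying libraries were looked for in 90 groups of 4 libraries (30 named genes), of which chance alone would mark about 4.5; 9 were marked. In each, 1 library stood far from the nearest other library of its group. In RNA batch 5 (replicate 1), mRNA was high in WT for Mdm4 (36.1 CPM, nearest 24.2), Luc7l3 (196, nearest 165) and Fam178a (128, nearest 86.1). In DKO of the same batch it was high for Luc7l3 (163, nearest 117) and Pnn (155, nearest 112), and low for Pllp (28.9, nearest 52.3) and Tbc1d9b (351, nearest 605). For each of these 6 genes the WT and the DKO library of batch 5 lay on the same side of the other libraries of their groups. Outside that batch, Kitl mRNA was low in WT replicate 2 (14 CPM, nearest 18.6), and Snrnp48 footprints were low in WT replicate 2 (5.64 CPM, nearest 6.55).

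By the edgeR test of the difference between genotypes, 3 TE values of DKO differed from a single mutant. Utp18 was higher in DKO than in FXS by 0.68 (log2), and Rps6kb1 differed from FXS by -1.14. Fmr1 differed from S6K1 by -1.42. The last pair are the targeted genes.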

How the results depend on the processing

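Batch acts as the block that pairs libraries. Without it (no replicate block), calls were 2 for TE in DKO against WT, 6 for footprints, 2 for mRNA, 1 for TE in FXS and 0 for S6K1 and for DKO against FXS and against S6K1. DESeq2 called 1169, 290, 1085, 154, 14, 6 and 33 genes in the same order. All 662 genes kept their direction in each of the 23 alternatives except 1 gene without the batch term. They were called from the same libraries, which each alternative fits again in whole or in large part, so the kept direction supports nothing. Of the 662, 2 stayed called without the batch term, 8 without footprint DKO replicate 2 and 16 without footprint WT replicate 2. With only the 2 genotypes compared, the calls were 382 (TE) and 4 (footprints), with 1 for FXS, 1 for DKO against FXS and 20 for DKO against S6K1; footprint DKO replicate 1 and WT replicate 1 were then fitted exactly. Without RNA batch 5, TE gave 343, mRNA 480, and FXS, S6K1 and DKO against FXS 1 each. Without footprint batch 1, footprints gave 8, FXS 2, S6K1 2, DKO against FXS 1 and DKO against S6K1 3. FXS gave 2 with RLE factors, 3 without a filter and 3 with voom; S6K1 gave 2 with voom.

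With 1 library left out, calls ran from 8 to 1096 for TE, from 2 to 103 for footprints, from 71 to 1093 for mRNA, from 1 to 33 for FXS, from 1 to 12 for S6K1, from 1 to 2 for DKO against FXS and from 1 to 3 for DKO against S6K1. The cause was not tested. The footprint comparison within batches rests on 2 DKO libraries, which limits its precision.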

Other observations

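Further gene groups that the report does not describe mostly held few calls. The counts that follow stand beside 1.85% of all genes called higher and 3.00% called lower. Of 75 respiratory chain genes and 77 mitochondrial ribosomal proteins, none passed for TE by edgeR, with 9 and 16 at an unadjusted p under 0.05 and with 1 and 2 called by DESeq2; their median changes were 0.01 and 0.03. Of 31 proteasome genes, TE rose for Psmd12 (0.37), a subunit of the regulatory particle, with a median of 0.14. Among GABA receptors, Gabrg1, a subunit of the GABA-A receptor, rose by 0.66, and Gabbr2 was lower as described, of 14 tested. Azin2 (-0.49), an antizyme inhibitor, was the gene called of 10 in polyamine metabolism, and Smg9 (-0.44) the one called of 15 in nonsense-mediated decay. Of 46 genes with very long coding sequences, Atm (0.52), the DNA damage kinase, rose and Celsr2 fell, with a median of 0.09.

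No immediate early gene of 20, no iron gene of 8 and no marker of hippocampus, thalamus or choroid plexus of 13 passed by edgeR, DESeq2 or limma voom, and none had an unadjusted p under 0.05 by edgeR. Of 15 genes of the integrated stress response, none passed by these tools, with 4 at an unadjusted p under 0.05.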
